A study of Mus musculus with 8 samples.

Results

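The loci of 4 transcription factor genes that maintain hematopoietic stem cells (HSCs), Meis1, Hlf, Mecom and Prdm16, were followed in chromatin accessibility data from old and young mouse HSCs. Their peaks were chosen by position alone, as every deposited peak lying fully inside chromosome 11 from 18770000 to 18930000 (Meis1), chromosome 11 from 90185000 to 90270000 (Hlf), chromosome 3 from 29840000 to 30450000 (Mecom) or chromosome 4 from 153680000 to 154020000 (Prdm16), all in mm9. This gave 173 of the 126871 peaks in the table, 30 at Meis1, 19 at Hlf, 78 at Mecom and 46 at Prdm16. HSCs of C57BL/6 mice were sorted from bone marrow as LSKCD150+CD48- cells, a gate that keeps marrow cells without lineage markers but with Sca-1, Kit and CD150, and leaves out those with CD48. Accessibility was measured by Omni-ATAC-seq, in which a transposase cuts and tags open DNA, so that more reads fall in a region that is more open. There were 4 libraries from old and 4 from young mice, numbered 1 to 4 in each group, and the labels name no treatment or genetic change in either. The labels give no ages or sex and do not state whether each library is from a different mouse, so the spread behind every p-value is that between libraries, which may be technical.

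Each of the 4 genes is known in mouse for a part in keeping stem cells. Meis1 encodes a homeodomain protein of the TALE class that binds DNA together with HOX and PBX proteins. Hlf encodes a basic leucine zipper protein of the PAR family and is among the genes most restricted to HSCs within the blood. Mecom encodes the zinc finger protein EVI1 and a longer form, MDS1-EVI1, with a PR domain, from separate start sites. Prdm16 encodes the closest relative of MDS1-EVI1, and its loss in mice depletes HSCs. Open chromatin around such genes marks promoters and enhancers that may be in use. In bulk material, fewer cells with an open site and a lower chance of opening per cell cannot be told apart.

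All 4 genes matched RefSeq's promoter table (GRCm38.p6), which holds 250 bases before to 50 after a start site, with 2 entries for Mecom and 1 for each other gene. The first Mecom entry (chr3:30509710-30510009, minus strand) and the Prdm16 entry (chr4:154636824-154637123, minus strand) are shown because they share a run of 24 bases, printed in capitals.
Mecom: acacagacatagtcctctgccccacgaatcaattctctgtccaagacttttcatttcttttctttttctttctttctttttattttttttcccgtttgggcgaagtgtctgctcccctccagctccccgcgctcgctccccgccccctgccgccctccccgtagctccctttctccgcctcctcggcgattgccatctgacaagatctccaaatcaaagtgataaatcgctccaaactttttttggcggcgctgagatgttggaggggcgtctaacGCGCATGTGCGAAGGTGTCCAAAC
Prdm16: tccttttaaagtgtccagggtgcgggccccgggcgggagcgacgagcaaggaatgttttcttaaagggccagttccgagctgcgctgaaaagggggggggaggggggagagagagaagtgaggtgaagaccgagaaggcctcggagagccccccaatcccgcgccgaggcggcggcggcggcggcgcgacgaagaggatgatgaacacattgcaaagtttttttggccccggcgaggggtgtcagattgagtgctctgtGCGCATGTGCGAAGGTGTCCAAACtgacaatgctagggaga
That run lies at bases 277 to 300 of the Mecom sequence and 260 to 283 of the Prdm16 sequence, and on both strands it is found in 2 of the 32851 promoters of the table, these 2. The next longest run shared by any pair of the 5 member promoters has 15 bases. The MEIS motif TGACAG occurs on either strand in 1 of these 5 promoters, the second of Mecom, and in 19.2% of all promoters. The PAR family motif TTACGTAA occurs in 0 of the 5 and in 0.119% of all. These sequences have GRCm38 positions, and the peaks have mm9 positions. The intervals were taken as given and not checked against mm9 gene models. No peak was therefore assigned to a start site, exon or intron, and which peaks are promoters was not analysed here. In RefSeq's gene order the nearest protein-coding neighbours are Etaa1 and Spred2 for Meis1 (gene ID 17268), Mmd and Stxbp4 for Hlf (217082), Egfem1 and Actrt3 for Mecom (14013), and Arhgef16 and Actrt2 for Prdm16 (70673). The sorted cell type was not checked against marker genes for the same reason.

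Libraries held 4200905 to 5129684 counts in old and 4229913 to 4992173 in young samples, of which 0.109% to 0.121% fell in the 4 loci. On the first principal component of all tested peaks (53.7% of the variance), old replicate 4 lay at -13.7, between old replicates 1 to 3 (-111 to -96.6) and the young libraries (52.9 to 99.0). Results that rest on it are given with and without it. Levels are given as CPM, the usual depth-scaled count, with library sizes scaled by TMM factors. A value after ± is the SD over the 4 libraries of a group, and SE is named where it is meant. A peak was called at an adjusted p below 0.05 in edgeR's quasi-likelihood test, with Benjamini-Hochberg adjustment over all 73164 peaks that passed a filter on low counts.

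The called changes at the 4 loci went both ways. Of the 173 peaks 116 passed the count filter, and of these 7 were called higher and 10 lower in old HSCs, 14.7% together. Over all peaks 20.5% of tested peaks were called, 10% higher and 10.4% lower, so the share at the 4 loci lay below the background. With total counts as library size, 5 member peaks were higher and 12 lower, where 20.3% of all tested peaks were called. The median log2 fold change, old minus young, was 0.02 over the tested peaks of the loci and 0.01 over all tested peaks, and the median size of change was 0.29 in both sets. The old and young libraries did not overlap at 23 of the 116 peaks (19.8%), against 21.1% of all tested peaks. Without old replicate 4 the calls numbered 12 higher and 15 lower of 116 (23.3%), where 30.0% of all peaks tested without it were called. The 57 peaks that missed the filter had mean levels of at most 2.15 CPM, and 37 of them lie at Mecom.

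**Figure D1:**
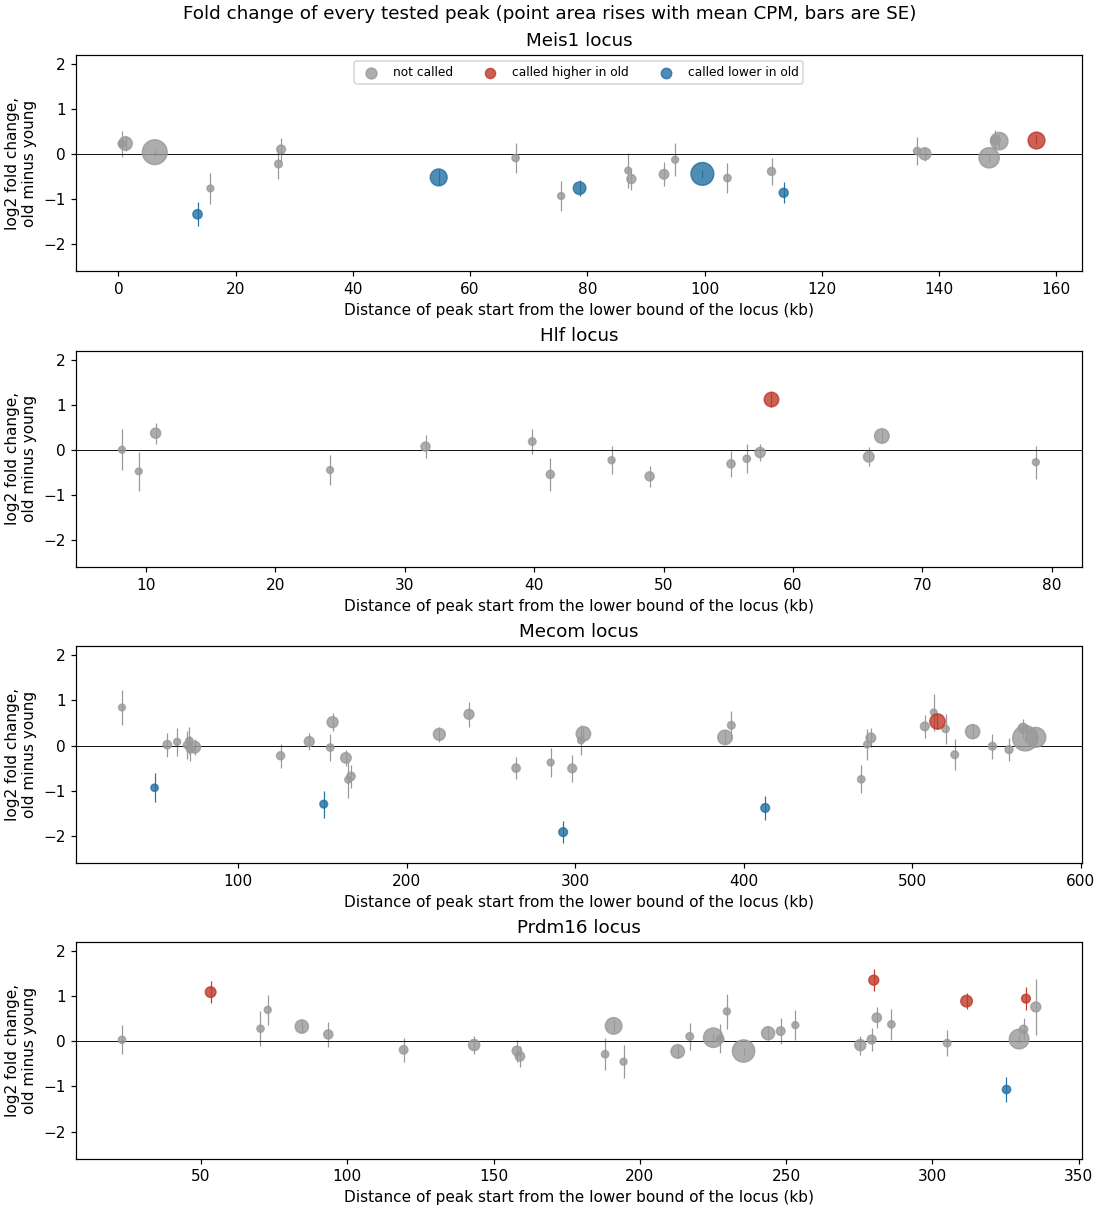
Log2 fold change (old minus young, y axis) of the 116 tested peaks against the distance of each peak's start from the lower bound of its locus in kb (x axis). Point area rises with mean CPM and bars are SE. The 5 lower Meis1 peaks lie between 13.5 and 114 kb, and 4 of the 5 called Prdm16 peaks are higher.

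As whole loci, Meis1 was slightly less open and Prdm16 slightly more open in old HSCs, while Hlf and Mecom did not pass the test. The counts of all deposited peaks of a locus were summed per library and fitted together with sums over windows of 100000 bases in the rest of the genome. Of the 16757 rows tested, 29.4% were called, 17.1% higher and 12.2% lower, so a called sum is common in these data. The median log2 fold change of these rows was 0.03.

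The Meis1 sum was 324, 354, 333 and 361 CPM in old replicates 1 to 4, against 381, 394, 378 and 366 CPM in young replicates 1 to 4. Every old library lay below every young library, though old replicate 4 and young replicate 4 were close. The fitted fall was 9.58%, a log2 fold change of -0.15 with an SE of 0.04 (edgeR adjusted p = 0.0135). The two-sided exact permutation p was 0.0286, the smallest that 4 against 4 libraries allow. The adjusted p was 0.0872 without old replicate 1, 0.0816 without old replicate 3 and 0.00384 without old replicate 4.

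The Prdm16 sum was 378, 406, 402 and 367 CPM in old libraries, against 328, 360.3, 357 and 341 CPM in young libraries. Every old library lay above every young one, with old replicate 4 the lowest of its group. The fitted rise was 12.01%, a log2 fold change of 0.16 with an SE of 0.04 (edgeR adjusted p = 0.00817). The two-sided exact permutation p was 0.0286. Without old replicate 4 the log2 fold change was 0.20 (edgeR adjusted p = 0.000626).

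The Hlf sum was 122, 116, 119.9 and 117 CPM in old libraries, against 120.1, 109, 103 and 92.0 CPM in young libraries. Old libraries were close together, and young replicate 1 lay inside their range. The log2 fold change was 0.17 with an SE of 0.07 (edgeR adjusted p = 0.0767; two-sided exact permutation p = 0.114). Hlf passed without old replicate 4 (edgeR adjusted p = 0.0455) and without young replicate 1 (0.0173). It did not pass with any other single library left out, and the edgeR adjusted p was highest, 0.258, without young replicate 4.

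The Mecom sum was 414, 414, 429 and 386 CPM in old libraries, against 405, 406, 383 and 354 CPM in young libraries. The groups overlapped through old replicate 4, which lay below young replicates 1 and 2. The log2 fold change was 0.09 with an SE of 0.05 (edgeR adjusted p = 0.162; two-sided exact permutation p = 0.143), and 0.13 without old replicate 4 (edgeR adjusted p = 0.0266). Without old replicate 4 the share of all sums called was 38.1%. Mecom did not pass with any other single library left out, and the edgeR adjusted p was highest, 0.451, without young replicate 4.

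**Figure D2:**
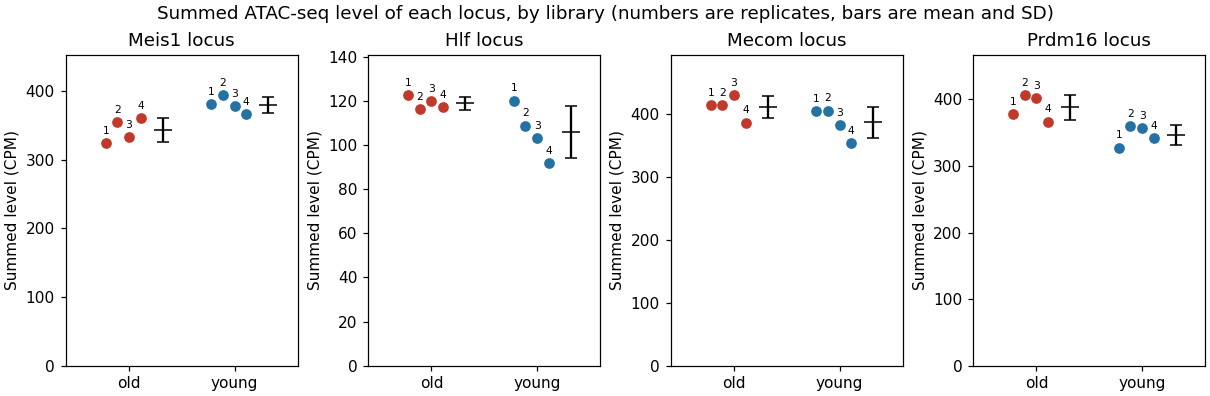
Summed level of each locus in CPM (y axis, from 0) in the old and young libraries (x axis), with replicate numbers beside the points and the group mean and SD as bars. The groups do not overlap at Meis1, where old libraries are lower, and at Prdm16, where they are higher.

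Per kb of peak, Meis1 was the most open of the 4 loci in both groups. It had 19.6 ± 0.992 CPM per kb in the old group and 21.7 ± 0.651 in the young group. Prdm16 had 14.4 ± 0.699 CPM per kb in the old group and 12.9 ± 0.557 in the young group, and Hlf 13.8 ± 0.336 in the old group and 12.3 ± 1.36 in the young group. The ranges of Prdm16 and Hlf overlapped in both groups, so their order was not resolved. Mecom was lowest, at 11.5 ± 0.503 CPM per kb in the old group and 10.8 ± 0.685 in the young group. It lay below every library of Hlf in old but overlapped Hlf in young.

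Ratios of counts taken within a library need no scaling between libraries. The log2 ratio of Meis1 to Prdm16 counts was -0.22, -0.20, -0.27 and -0.02 in old replicates 1 to 4, against 0.22, 0.13, 0.08 and 0.10 in young replicates 1 to 4. The ratio was negative in every old library and positive in every young library. The difference, old minus young, was -0.31 (two-sided exact permutation p = 0.0286). The ratio of Meis1 to Hlf differed by -0.32 and that of Meis1 to Mecom by -0.24, each with the same exact permutation p and no overlap between groups. The exact permutation p was 0.171 for Hlf to Mecom (difference 0.08), 1.0 for Hlf to Prdm16 (0.01) and 0.286 for Mecom to Prdm16 (-0.07). Meis1 was thus lower relative to each of the other loci in every old library than in any young library. Adjusted with the Benjamini-Hochberg method over these 6 ratios and 4 to flanks, the 3 ratios of Meis1 stood at 0.0571. No shift between loci passed the threshold. These ratios already had the smallest exact permutation p that 4 against 4 libraries allow. To pass after adjustment, more of the 10 ratios would have had to reach that smallest p. The adjusted values therefore cannot decide on a shift between loci.

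Each locus was also set against its flanks, the peaks within 250000 bases on either side. The log2 ratio of Hlf to its flanks was -1.51, -1.62, -1.54 and -1.58 in old libraries, against -1.90, -1.90, -2.03 and -2.04 in young libraries. All old libraries were above all young ones, and the difference was 0.40 (two-sided exact permutation p = 0.0286). The 53 flanking peaks summed to 351 ± 3.77 CPM in the old group and 413 ± 29.9 CPM in the young group, so the ratio moved with the flanks as well as with the locus. Prdm16 over its flanks differed by 0.08 (exact permutation p = 0.0286), and by 0.10 with flanks of 500000 bases, where the exact permutation p was 0.143. The 52 Prdm16 flanking peaks summed to 346 ± 16.1 CPM in the old group and 327 ± 3.14 CPM in the young group. The mean of these flanks was thus higher in old as well. The difference in the ratio to flanks was 0.03 for Meis1 (exact permutation p = 0.886) and -0.01 for Mecom (exact permutation p = 0.657). The flanks of Meis1 held little signal, at 52.7 ± 5.95 CPM in the old group and 59.7 ± 10.2 CPM in the young group, and 0 of 6 tested peaks there were called by edgeR. Over the 10 ratios the adjusted p for Hlf and for Prdm16 was also 0.0571, above the threshold, with the same limit as for the ratios of Meis1.

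**Figure D3:**
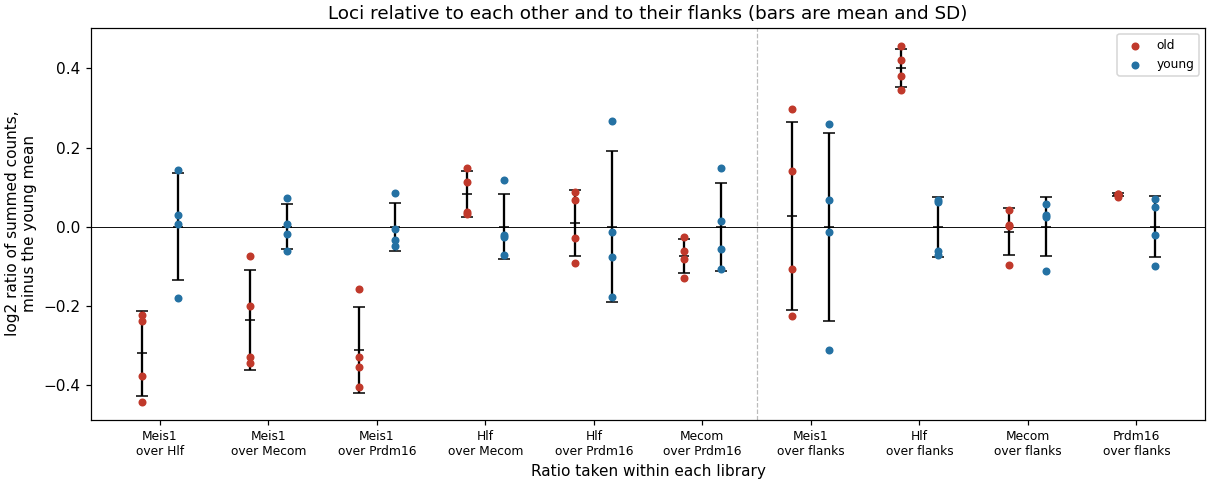
Log2 ratio of summed counts within each library (y axis, shifted so that the young mean is 0) for the 6 pairs of loci and for each locus over its flanks (x axis). Points are libraries, and bars are the mean and SD of a group. Old libraries lie below all young ones in the 3 ratios with Meis1 on top of another locus, and above them for Hlf and Prdm16 over their flanks.

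At Meis1, 5 peaks were called lower and 1 higher among 25 tested, and 16 of the 25 log2 fold changes were negative. The share called was 24.0%, against 20.5% of all tested peaks. The share of negative signs over all tested peaks was not computed. The second strongest peak of the locus, from 18869635 to 18870747, had 38.95, 44.0, 41.7 and 53.7 CPM in old replicates 1 to 4, against 61.6, 54.7, 60.3 and 66.1 CPM in young replicates 1 to 4. All old libraries were lower, with old replicate 4 next to the young range. Its log2 fold change was -0.44 with an SE of 0.09 (edgeR adjusted p = 0.00216), from 803 counts in old and 1072 in young libraries. The largest fall, 2.52-fold, belonged to a weaker peak from 18783506 to 18783889, with 3.82, 2.95, 2.31 and 6.00 CPM in old against 7.93, 8.63, 9.25 and 12.5 CPM in young libraries (log2 fold change -1.33, SE 0.26, edgeR adjusted p = 0.00125). Here too the groups did not overlap and old replicate 4 was the highest old library.

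The peak from 18848682 to 18849666 had 10.2, 14.7, 8.76 and 8.68 CPM in old libraries, against 17.02, 17.3, 17.8 and 19.6 CPM in young libraries (log2 fold change -0.75, SE 0.17, edgeR adjusted p = 0.00385). Old replicate 4 was the lowest library at this peak. The peak from 18883506 to 18884168 had 4.30 ± 0.815 CPM in the old group and 7.84 ± 1.28 CPM in the young group (edgeR adjusted p = 0.0113), again without overlap. The fifth lower peak, from 18824648 to 18825460, had 17.8, 23.1, 17.99 and 31.2 CPM in old libraries, against 33.1, 29.5, 39.5 and 28.4 CPM in young libraries (edgeR adjusted p = 0.0357). Its groups overlapped through old replicate 4, and it was not called under 7 of 17 alternatives, among them the fits without old replicate 1, 2 or 3 or without young replicate 1 or 3. Without old replicate 4 its log2 fold change was -0.71 (edgeR adjusted p = 0.00015).

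The strongest and widest Meis1 peak, 2118 bases from 18776211 to 18778329, did not pass the test. It had 67.7, 66.5, 62.3 and 59.1 CPM in old libraries, against 58.1, 72.0, 60.3 and 56.9 CPM in young libraries, and the groups overlapped fully (log2 fold change 0.04, SE 0.08, edgeR adjusted p = 0.746). It lies a few kb below the peak that fell most. At the other end of the locus, the peak from 18926522 to 18927877 was higher, with 28.3, 30.3, 30.2 and 33.7 CPM in old libraries, against 24.3, 24.0, 22.5 and 27.1 CPM in young libraries (log2 fold change 0.32, SE 0.11, edgeR adjusted p = 0.0354). That call was lost under 11 of 17 alternatives, among them total count scaling and the fit without old replicate 4. The 5 lower peaks of Meis1 lie between its strongest peak and this one, neither of which was called lower. These 2 peaks start 6.21 and 156.5 kb from the lower bound of an interval of 160000 bases. Nearly all Meis1 peaks lie between them, so this placement does not set the lower peaks apart.

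At Hlf, a single peak carried the called change. Of 16 tested peaks 1 was higher and 0 lower, and 10 of the 16 log2 fold changes were negative. The share called was 6.25%, against 20.5% of all tested peaks. The peak from 90243284 to 90243920 had 29.0, 25.03, 32.8 and 22.5 CPM in old replicates 1 to 4, against 14.0, 16.4, 11.3 and 8.40 CPM in young replicates 1 to 4. The lowest old library exceeded the highest young one, and the level was 2.17-fold higher (log2 fold change 1.12, SE 0.17, edgeR adjusted p = 0.00021). This call was kept under all 17 alternatives that tested it, including each library left out in turn. For the count of 0 lower peaks, 1 Hlf peak was lower at an unadjusted edgeR p below 0.05, and DESeq2 called 0. Without old replicate 4, 2 Hlf peaks were called higher and 1 lower among 17 tested, where 30.0% of all peaks tested without it were called.

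The strongest Hlf peak, from 90251859 to 90252514, had 23.2, 23.8, 21.0 and 20.9 CPM in old libraries, against 18.7, 19.4, 17.5 and 16.2 CPM in young libraries. The groups did not overlap, but the difference did not pass (log2 fold change 0.31, SE 0.13, edgeR adjusted p = 0.0865). It passed without old replicate 4, at an adjusted p of 0.0469. The widest peak, from 90195740 to 90196787, had 9.40 ± 2.04 CPM in the old group and 7.37 ± 2.50 CPM in the young group, and the groups overlapped (edgeR adjusted p = 0.291).

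At Mecom, which spans the longest interval, the called losses were at peaks far below its strongest ones. Of 41 tested peaks 1 was higher and 4 lower, a share of 12.2% against 20.5% of all tested peaks. The largest fall of all 4 loci was at the peak from 30132892 to 30133358, with 1.78, 2.10, 2.31 and 2.89 CPM in old replicates 1 to 4, against 9.09, 8.63, 9.75 and 7.54 CPM in young replicates 1 to 4. Every young library was well above every old one, and the fall was 3.78-fold (log2 fold change -1.92, SE 0.25, edgeR adjusted p = 2.36e-05), from 41 counts in old and 154 in young libraries. The peak from 30252759 to 30253614 had 2.04, 2.52, 2.77 and 4.75 CPM in old libraries, against 7.93, 7.15, 7.75 and 9.26 CPM in young libraries (log2 fold change -1.38, SE 0.26, edgeR adjusted p = 0.000818). Old replicate 4 was again the old library closest to the young ones.

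The peak from 29990861 to 29991299 had 1.78, 1.68, 2.08 and 3.10 CPM in old libraries, against 7.0, 4.0, 5.5 and 5.17 CPM in young libraries (log2 fold change -1.30, SE 0.30, edgeR adjusted p = 0.00395). Its groups did not overlap. The fourth lower peak, from 29890499 to 29890968, had 2.13 ± 0.71 CPM in the old group and 4.12 ± 1.01 CPM in the young group (edgeR adjusted p = 0.0441), and was not called under 10 of 16 alternatives. All 4 of these peaks had mean levels between 3.12 and 5.52 CPM, far below the 65.7 CPM of the strongest peak of the locus. They lay below the median of all tested peaks of the table (6.45 CPM). The median of all deposited Mecom peaks was 2.33 CPM. It includes 37 peaks that missed the count filter, which a called peak has to pass.

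The strongest Mecom peaks stand close together near the upper end of the interval. The peak from 30407071 to 30408403 had 60.6, 74.5, 73.6 and 68.6 CPM in old libraries, against 65.3, 62.5, 60.004 and 60.3 CPM in young libraries. Old replicate 1 lay inside the young range (log2 fold change 0.16, SE 0.07, edgeR adjusted p = 0.127), and without it the adjusted p was 0.0394. Its neighbour from 30413324 to 30414618 had 42.5, 41.4, 41.5 and 42.2 CPM in old libraries, against 38.2, 35.6, 37.8 and 36.2 CPM in young libraries. All old libraries were above all young ones there, by a small step that did not pass (log2 fold change 0.18, SE 0.08, edgeR adjusted p = 0.118). The called gain, from 30354804 to 30355531, had 30.3, 31.97, 25.8 and 17.4 CPM in old libraries, against 21.9, 18.5, 18.8 and 13.1 CPM in young libraries. Old replicate 4 lay inside the young range (log2 fold change 0.54, SE 0.18, edgeR adjusted p = 0.0482), and the call was lost under 11 of 17 alternatives. Without old replicate 4 it stood at 0.71 (edgeR adjusted p = 0.00026). The widest peak, 1562 bases from 30144905 to 30146467, had 21.7 ± 3.96 CPM in the old group and 17.9 ± 3.27 CPM in the young group, which overlapped (edgeR adjusted p = 0.25).

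At Prdm16, 4 peaks were called higher and 1 lower among 34 tested, and 23 of the 34 log2 fold changes were positive. The share called was 14.7%, below the 20.5% of all tested peaks. The share of positive signs over all tested peaks was not computed. The largest gain was at the peak from 153959966 to 153960795, with 11.5, 13.3, 13.8 and 7.24 CPM in old replicates 1 to 4, against 4.20, 6.31, 3.0 and 4.09 CPM in young replicates 1 to 4. The groups did not overlap, and the level was 2.56-fold higher (log2 fold change 1.35, SE 0.25, edgeR adjusted p = 0.000673). The peak from 153991680 to 153992569 had 16.3, 17.7, 15.5 and 11.4 CPM in old libraries, against 8.40, 7.15, 9.50 and 7.76 CPM in young libraries (log2 fold change 0.89, SE 0.18, edgeR adjusted p = 0.00155). Old replicate 4 was the lowest old library at both, still above every young one.

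The peak from 153733315 to 153734381, at the other side of the interval, had 9.93, 19.1, 10.6 and 11.8 CPM in old libraries, against 5.13, 8.0, 3.75 and 7.11 CPM in young libraries (log2 fold change 1.09, SE 0.25, edgeR adjusted p = 0.0042). Replicate 2 was the highest library of each group. Near the upper bound, a narrow peak from 154011984 to 154012208 had 7.55 ± 1.29 CPM in the old group and 3.88 ± 1.40 CPM in the young group (edgeR adjusted p = 0.0129), without overlap. A few kb below it, the peak from 154004998 to 154005252 was the lone loss, with 1.78, 2.73, 2.77 and 4.75 CPM in old libraries, against 5.83, 6.52, 6.00 and 7.32 CPM in young libraries (log2 fold change -1.07, SE 0.27, edgeR adjusted p = 0.00866). Between the gain and the loss, the second strongest peak of the locus, from 154009644 to 154011062, had 38.99 ± 4.86 CPM in the old group and 37.7 ± 2.24 CPM in the young group (edgeR adjusted p = 0.764). The upper end of Prdm16 thus held a gain, a loss and a strong peak with overlapping groups side by side.

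The strongest and widest Prdm16 peak had the opposite sign to the sum of its locus. From 153915459 to 153917020, it had 45.8, 47.5, 43.8 and 49.6 CPM in old libraries, against 49.2, 55.6, 54.5 and 57.7 CPM in young libraries. Old replicate 4 and young replicate 1 overlapped slightly, and the difference missed the threshold (log2 fold change -0.22, SE 0.08, edgeR adjusted p = 0.0541). It was called lower under 6 of 17 alternatives, with a lowest adjusted p of 0.0165 under loess scaling. This peak held 12.1 ± 1.10% of the locus in the old group and 15.7 ± 0.852% in the young group, and without it the Prdm16 sum rose by 0.22 on the log2 scale (edgeR adjusted p = 0.00156).

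**Figure D4:**
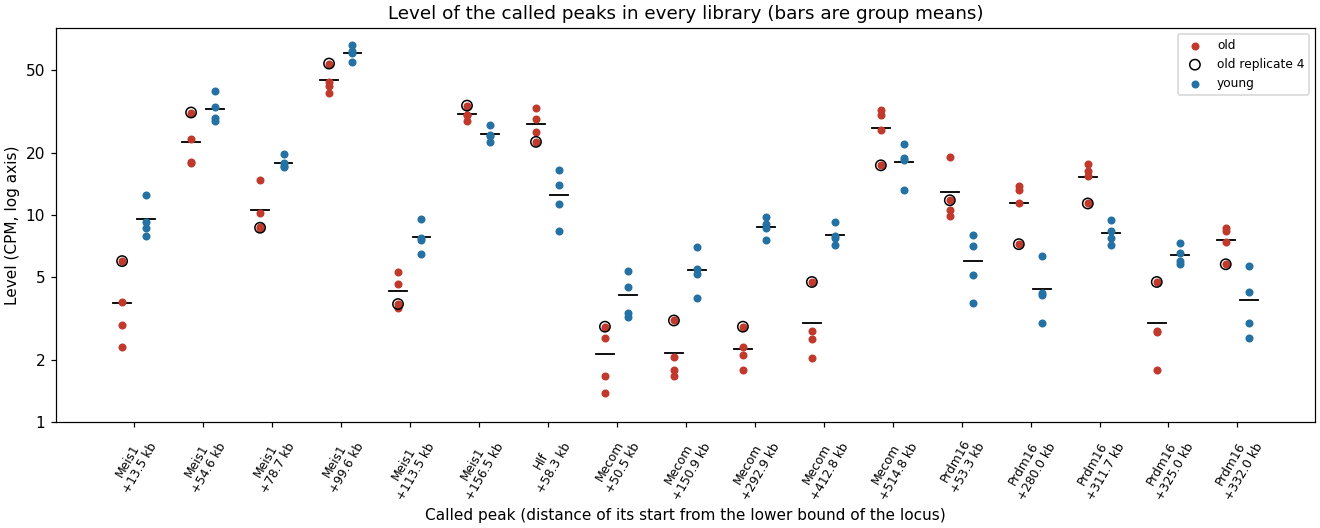
Level in CPM (y axis, log scale) of the 17 called peaks in every library, with the old libraries left of the young ones, old replicate 4 ringed and bars at group means. Peaks are named by locus and by the distance of their start from the lower bound (x axis). Old and young points are apart at 15 of the 17 peaks and overlap at the Meis1 peak at 54.6 kb and the Mecom peak at 514.8 kb. The peaks were picked by the test on these same libraries, so their separation adds no further support.

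The called peaks were not confined to weak ones. At a mean of 20 CPM or more, 4 of the 14 member peaks were called (3 of them at Meis1), where 22.1% of all tested peaks of that strength were called. Of these 4, the Meis1 peak from 18869635 to 18870747 lost its call under 1 of 17 alternatives. The other 3 lost theirs under 7, 11 and 11 of 17. Among called members, peaks that were lower had a median mean level of 5.80 CPM and those that were higher 11.7 CPM. The median size of a called change was 0.95 on the log2 scale at the 4 loci and 0.94 over all called peaks. Of the 17 called members 8 changed more than 2-fold, and the share over all called peaks was not computed.

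Regions with a like profile over the 8 libraries were sought for each locus. For each locus the 3 windows of 100000 bases with the smallest root mean square difference in centred log2 level were taken, a measure in which 0 means the same profile. Closest to Meis1 was chromosome 1 from 58500001 to 58600000 (difference 0.03), with 123 ± 4.26 CPM in the old group and 137 ± 5.34 CPM in the young group. Closest to Hlf was chromosome 13 from 104700001 to 104800000 (0.03), with 100.1 ± 3.18 CPM in the old group and 88.1 ± 10.2 CPM in the young group. Closest to Mecom was chromosome 1 from 140800001 to 140900000 (0.03), and closest to Prdm16 chromosome 5 from 145800001 to 145900000 (0.02). The window on chromosome 5 had 117 ± 4.76 CPM in the old group and 106 ± 3.79 CPM in the young group. The third closest windows lay at 0.03 to 0.05. Genes in these windows were not analysed here.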

How the data were processed

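Omni-ATAC-seq libraries of sorted bone marrow HSCs, 4 old and 4 young, were analysed from the authors' deposited table of whole-number read counts for 126871 peaks, with 0 columns of other samples. Bowtie2, SAMtools, Picard, MACS2, Trim Galore and FastQC, and the build mm9, are named per the submitters' processing notes. How reads were shifted and how the peak set was merged is not given in the sources used here. The deposited counts summed to 4200905 to 5129684 per library, which limits precision at weak peaks.

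Peaks were filtered with filterByExpr (minimum count 10, minimum total 15), scaled by TMM and tested with edgeR 4.0.16 (quasi-likelihood, robust) in R 4.3.3, with Benjamini-Hochberg adjustment over all tested peaks and a threshold of 0.05. The filter kept 94.2% of counts. Locus sums were fitted with sums over windows of 100000 bases. Exact permutation tests covered the 70 ways to split 8 libraries into equal groups. The fitting was checked on simulated data. limma 3.58.1 (voom) and DESeq2 1.42.0 served as alternatives, beside other scalings, filters, bounds and flanks, a replicate block and each library left out in turn. Named peaks were, in each locus, the 2 strongest, the widest and up to 6 called peaks with the smallest p. The loci, rules and lists were chosen with earlier results of these data known. Counts of every pair of libraries differed by more than counting noise, so none was merged as a library deposited more than once. This does not show that they came from different mice. Replicate numbers were not treated as pairs. RefSeq tables of GRCm38.p6 gave gene names and promoter sequences only, and no coordinates were converted between builds. Other stem cell genes and cell type markers were not analysed here.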

Additional observations from a re-analysis of the deposited data

How the results depend on the processing

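Meis1 was lower and Prdm16 higher under every scaling, filter and test tried, and Meis1 lost its call only without old replicate 1 or 3. With 1 library left out in turn, log2 fold changes ran from -0.16 to -0.11 for Meis1, 0.10 to 0.23 for Hlf, 0.0466 to 0.126 for Mecom and 0.14 to 0.20 for Prdm16, and counts ran from 5 to 12 higher and 8 to 15 lower peaks, while 13.8% to 30.0% of all tested peaks were called. The Hlf sum passed with no count filter (0.20, edgeR adjusted p = 0.0326) and with the replicate number as a block (0.17, edgeR adjusted p = 0.0390). With that replicate block 10 peaks were higher and 10 lower, 17.2% of those tested, where 22.9% of all tested peaks were called, and the Meis1 peak from 18824648 to 18825460 lost its call (edgeR adjusted p = 0.0589). Correlations between same-numbered libraries were -0.01, 0.07, 0.05 and 0.18, and those between differently numbered ones ran from -0.13 to 0.08. These values do not settle whether the numbers mark pairs. No label says that they do, so the numbers were not taken as pairs. Higher peaks numbered 2 at a mean count of at least 50, 2 at a minimum fold of 1.5 and 4 at an adjusted p below 0.01. Lower peaks numbered 4 at a mean count of at least 50 and 3 at a minimum fold of 1.5. The share of members called was 22.2% at a mean count of at least 50 (21.7% of all peaks), 4.31% at a minimum fold of 1.5 (4.37% of all) and 9.48% at an adjusted p below 0.01 (10.1% of all). Signs reversed at the strongest Meis1 peak under loess scaling (-0.0203) and at a mean count of at least 50 (-0.0022), and at the second strongest Prdm16 peak without old replicate 3 (-0.0174). The old minus young difference in the log2 ratio of Prdm16 to its flanks was 0.10 with flanks of 500000 bases (unadjusted exact permutation p = 0.143, against 0.0286 with flanks of 250000 bases). With 7 libraries the smallest exact p is 0.0571, so no ratio could pass. With all 8 none passed after adjustment, as too few ratios reached the smallest p for any to pass. Their differences without 1 library ran from -0.38 to -0.27 for Meis1 over Hlf, -0.29 to -0.20 for Meis1 over Mecom, -0.36 to -0.28 for Meis1 over Prdm16, 0.06 to 0.12 for Hlf over Mecom, -0.05 to 0.10 for Hlf over Prdm16 and -0.11 to -0.02 for Mecom over Prdm16. Against flanks they ran from -0.08 to 0.11 for Meis1, 0.38 to 0.42 for Hlf, -0.05 to 0.02 for Mecom and 0.05 to 0.10 for Prdm16. The cause of these changes was not tested. Depth limits the weak peaks most, since 57 of 173 were too low to test.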

Other observations

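Of the 57 member peaks below the count filter, 3 were called when no filter was applied. In that fit 16.1% of all 126871 peaks were called, a share that includes the stronger peaks. The share among all peaks below the filter was not computed. They are named here because of their values. The Prdm16 peak from 153722267 to 153722911 had 2.04, 3.58, 7.38 and 1.24 CPM in old replicates 1 to 4, against 0.466, 0.210, 0 and 0.215 CPM in young replicates 1 to 4. That is 63 counts in old and 4 in young libraries (log2 fold change 3.85 ± 0.67 SE, edgeR adjusted p = 0.000451), and every old library was above every young one. The other two lie at Mecom and were lower. The Mecom peak from 29845563 to 29845942 had 9 counts in old and 33 in young libraries (log2 fold change -1.79, edgeR adjusted p = 0.0191). The Mecom peak from 30210513 to 30210998 had 9 counts in old and 34 in young libraries (log2 fold change -1.83, edgeR adjusted p = 0.0329).

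The named peaks, locus sums and ratios were screened for a library far from the rest of its group. Of 78 groups of 4 libraries, 0 were flagged. Chance would give about 3.9 if the groups were independent, but all come from the same 8 libraries. The called ones among the peaks were also picked by a test on these libraries. The 0 therefore does not show that no library stands apart, and old replicate 4 did on the first principal component (-13.7).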
